A study of Drosophila melanogaster with 9 samples.

Results

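The genes described here were expressed more highly on both 10% glucose and agar than on standard medium, and to a similar extent on both. They are 52 of the 10245 genes measured in whole guts of adult Drosophila melanogaster females. The members were chosen by their measured log2 RPKM values in all 9 libraries. A gene was taken when its mean on glucose and its mean on agar each lay at least 1 log2 unit above its mean on standard medium, and when the glucose and agar means differed by at most 0.5. Every glucose and agar library also had to lie above every standard library, and the highest diet mean had to reach 2 RPKM (reads counted per kilobase of transcript and scaled to the size of the library). These limits were met by 58 genes, of which 6 were dropped by name (CR44145, Rpb12, Drsl3, CG7298, CR44095 and CG15534). The mirror of the rule, genes lower on both diets, took 11 genes. Because the rule read all 3 diet contrasts, the members' differences between diets are given as descriptions with no test.

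The flies were of the wild-type Oregon R strain and carried no labelled transgene or mutation, and the groups were flies fed standard medium, flies fed 10% glucose and flies fed agar. Agar alone is a gel with no digestible food, and 10% glucose supplies sugar without the other nutrients of standard medium. The sources used here do not give the age of the flies or the time on each diet. Each diet had 3 libraries described as biological repeats, 9 in all, and no label says whether repeats came from separate cultures, so spreads and p-values measure the variation between these libraries. The comparisons of glucose and of agar with standard medium share the 3 standard libraries.

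The fly gut digests food, takes up nutrients and meets ingested microbes, and both feeding and starvation are known to change its transcription. Several members encode short peptides that flies secrete after infection. These include the Bomanins, the Daisho peptides and the Baramicin peptides, which are targets of the Toll pathway, in which the extracellular ligand Spätzle activates the receptor Toll and, through cytoplasmic adaptors and the inhibitor Cactus, the transcription factors Dif and Dorsal. The fat body is the best known source of these peptides, whereas antimicrobial peptides of the gut epithelium are known mainly as targets of the Imd pathway.

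Library totals recovered from the values were 34899709 to 48389188 reads. Across genes, themselves no replicates, Pearson's r was 0.953 to 0.986 among standard libraries, 0.984 to 0.992 among glucose libraries and 0.958 to 0.984 among agar libraries. Standard replicates 2 and 3 stood apart from the other libraries in histone transcripts, whose median over 114 histone genes was 3.98 and 3.32 log2 units above the median library, against -0.17 in standard replicate 1. The median of all 8036 genes over the detection filter was also higher on both diets as deposited, by 0.33 log2 units on glucose and 0.36 on agar, and these shifts were 0.01 and 0.00 after median-ratio scaling of the libraries. Whole guts were analysed, so fewer cells of a type and less RNA per cell cannot be told apart.

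Over the 52 members the median difference from standard medium was 1.30 log2 units on glucose, with a range of 1.00 to 4.48, and 1.39 on agar, with a range of 1.02 to 4.08. Most members lay close to the limit: the smaller of a member's differences was under 1.5 in 42 of them, and 3 members, CG3290, CG13215 and IM4, exceeded 2 log2 units on both diets. The agar mean was above the glucose mean in 30 members and below it in 22. The members were mostly of low level, with a median of 1.8 RPKM on standard medium, and 29 of them lay under 2 RPKM there. Over the 6 glucose and agar libraries, 9 members averaged at least 50 RPKM and 24 under 5 RPKM.

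**Figure D1:**
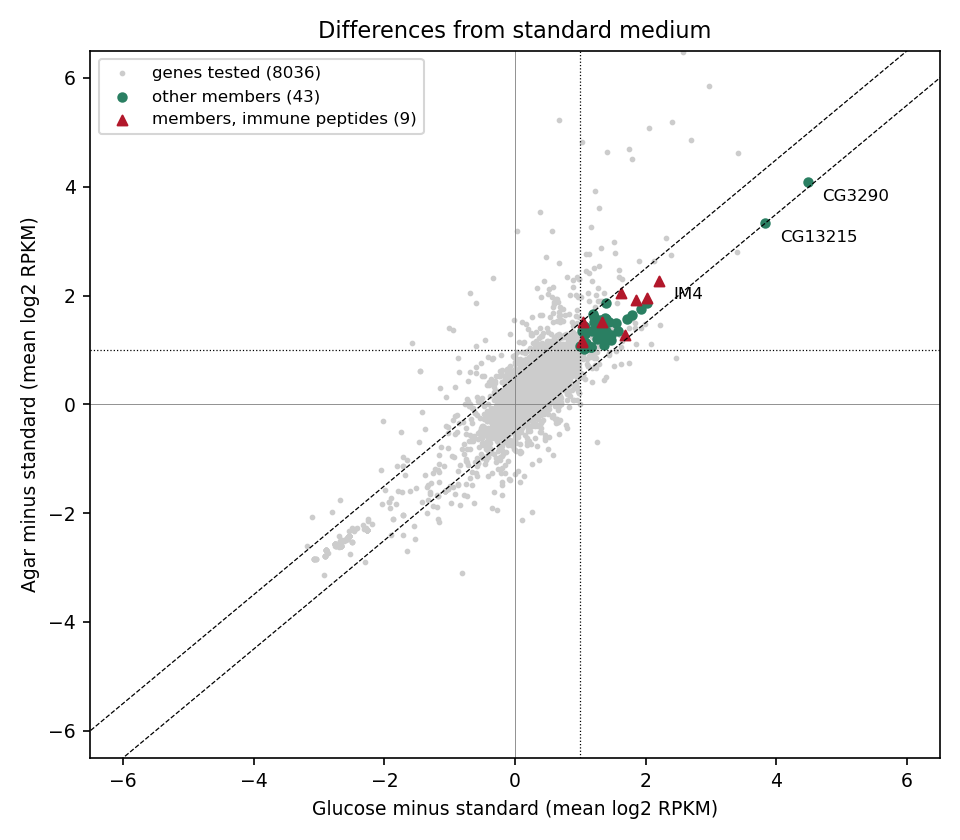
Each point is a gene, placed by its mean log2 RPKM on glucose minus standard medium (horizontal) and on agar minus standard medium (vertical); grey points are the 8036 genes tested, green circles 43 members and red triangles the 9 members that are immune peptides or immune-induced secreted proteins. Dotted lines mark the 1 log2 unit limits and dashed lines the 0.5 limits on agar minus glucose, and the standard libraries enter both axes. CG3290 and CG13215 lie far up the diagonal, and most members lie just past the corner that the limits make.

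All 52 members passed the filter of at least 1 RPKM in at least 3 libraries. Among all genes tested, all 6 glucose and agar libraries lay above every standard library in 37.8%, every glucose library did so in 50.3%, and every agar library in 47.4%. In limma's moderated test on log2(RPKM + 1), with p-values adjusted over all genes tested and called under 0.05, 21.3% of genes were called higher on glucose (22.2% in either direction) and 37.7% on agar (39.9% in either direction). These calls, higher in each case, were made for 47 and 52 of the 52 members, a count that the rule itself favours and from which nothing is read. As deposited, 1715 genes were called higher and 72 lower on glucose, and 3031 and 179 on agar, whereas median-ratio scaling left 26 higher and 51 lower on glucose, and 146 and 228 on agar. With the repeat number as a block, 3676 genes were called on glucose in either direction against 1787 without it.

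At the limit on the size of the difference, the members just inside were CG32428 (1.00), CG3842 (1.02) and CG33470 (1.03), and the genes just outside were Ugt86Dc (0.999), Sclp (0.996) and yellow-b (0.993). At the limit on agar minus glucose, CG13215 (0.49), CG16836 (0.48) and CG9989 (0.47) lay inside and CG13078 (0.57), CG42825 (0.61) and CG43055 (0.63) outside. The narrowest gaps between the highest standard library and the lowest other library were 0.14 log2 units for CG3739, 0.16 for IM10 and 0.17 for CG11619, while Cht5 (-0.35) and snoRNA:Me28S-C2645c (-0.40) were left out by an overlap. At the limit on level, Plzf (2.18 RPKM), CG13422 (2.22) and yellow-f2 (2.39) lay inside and CG2909 (1.90) and CG40155 (1.81) outside.

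**Figure D2:**
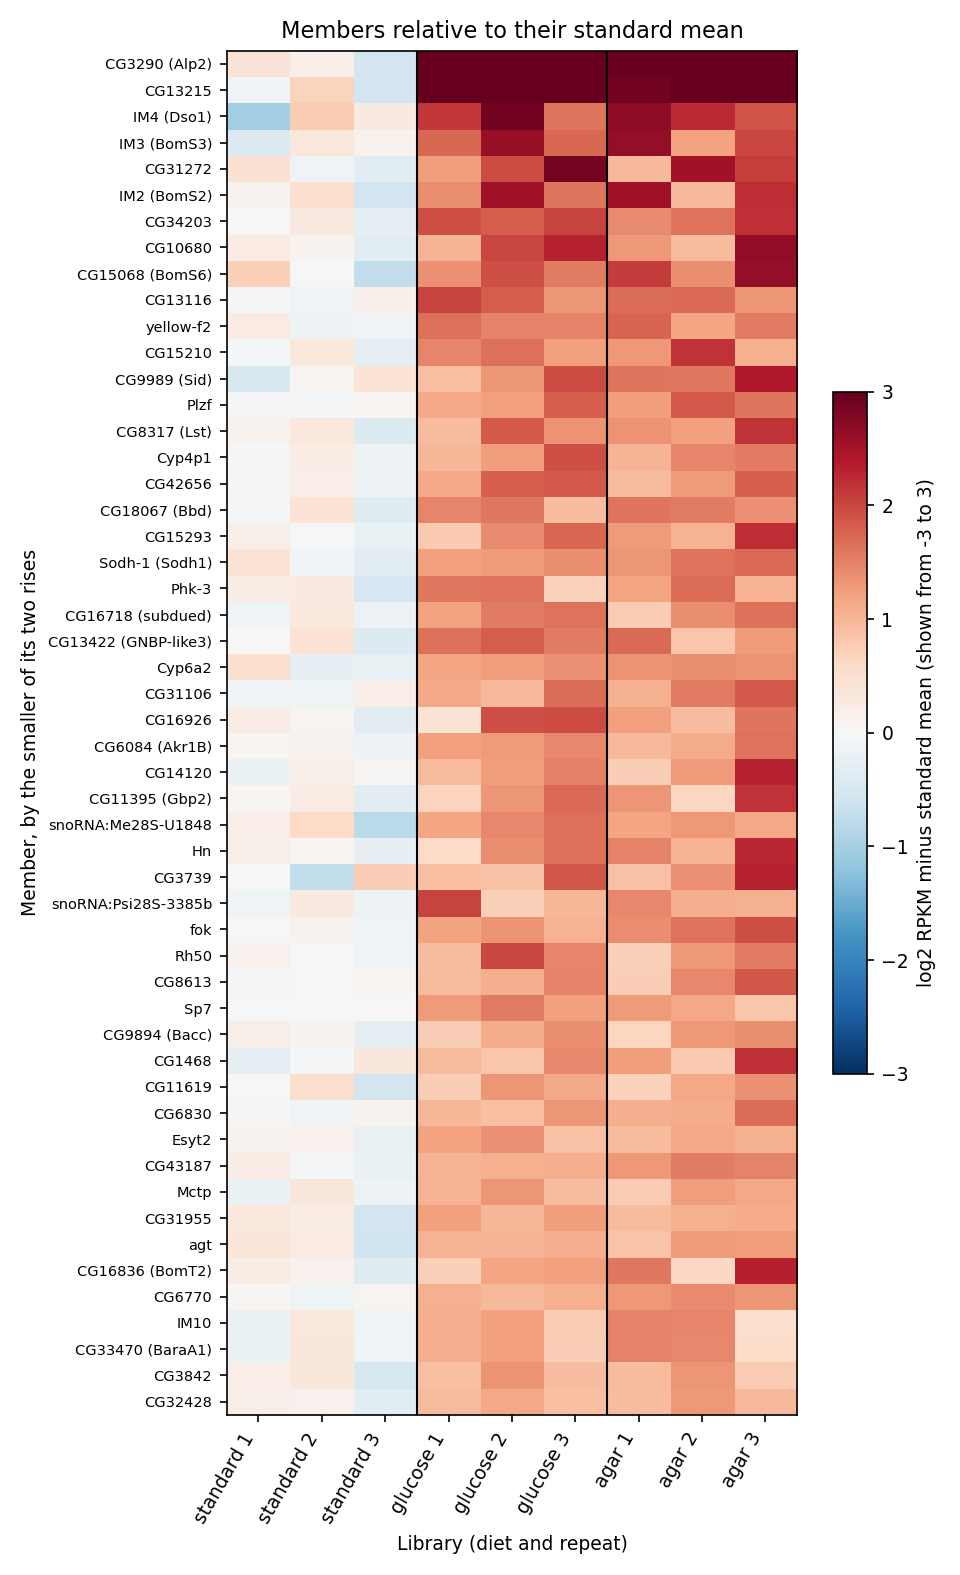
Rows are the 52 members, ordered by the smaller of their differences from standard medium, and columns are the 9 libraries; colour gives log2 RPKM minus the member's mean over the 3 standard libraries, shown from -3 to 3. Red fills the 6 glucose and agar columns, as the rule requires, and its depth varies among libraries of 1 diet. Agar 3 was the highest agar library in 26 members (50%, against 42.5% of genes tested) and glucose 3 the highest glucose library in 29 (55.8%, against 39.8%).

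The largest differences belonged to CG3290, now named Alp2, which encodes an alkaline phosphatase, an enzyme class that removes phosphate groups and is typical of the intestinal surface. CG3290 was at 1.85, 1.57 and 0.968 RPKM in standard replicates 1 to 3, at 24.0, 31.1 and 41.9 on glucose, and at 15.1, 35.0 and 25.7 on agar. Its lowest glucose or agar library was 8.17-fold above its highest standard library, and geometric means were 22.3-fold higher on glucose and 16.9-fold higher on agar. These levels rest on 75 to 157 reads per standard library and on at least 1008 reads in each of the others. CG13215, a gene without an established name, had differences of similar size. It was at 1.85, 3.10 and 1.33 RPKM on standard medium, at 25.1, 34.1 and 25.5 on glucose, and at 14.6, 26.7 and 20.2 on agar, which is 14.2-fold and 10.1-fold higher. In both genes agar replicate 1 was the lowest of the 6 glucose and agar libraries, and the glucose mean was above the agar mean by 0.40 and 0.49 log2 units.

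Of the alkaline phosphatase family 10 genes were measured and 8 tested, CG3290 being the 1 member among them and the other 7 being counted here. CG10592 (Alp10) was at 245 ± 26.2 RPKM (SD, n = 3) on standard medium, 559 ± 118 on glucose and 389 ± 60.1 on agar. It was called higher on both diets (limma, 1.17 on the log2(RPKM + 1) scale, SE 0.20, adjusted p = 0.0171, and 0.66, SE 0.20, adjusted p = 0.0297), with every glucose and agar library above every standard library. CG5150 (Alp9) was at 251 ± 19.1, 477 ± 130 and 380 ± 94.3 RPKM and was called on glucose (limma, 0.89, SE 0.25, adjusted p = 0.0362) but not on agar (0.57, adjusted p = 0.0923, and 0.0454 with the repeat number as a block). Per length of transcript, both were far more abundant than CG3290 on standard medium, where CG3290 averaged 1.46 RPKM. Of the 7, 2 were called higher on glucose (28.6%, against 21.3% of all genes tested) and 1 on agar (14.3%, against 37.7%), and none was called lower. With the repeat number as a block 3 and 2 were called (42.9% and 28.6%, against 45.7% and 55.7% of all genes tested). After median-ratio scaling 0 and 0 were called, against 77 and 374 of 8000 genes. The agar call of CG10592 was lost without any 1 of 4 libraries, agar replicates 2 and 3 and standard replicates 2 and 3 (adjusted p of up to 0.0913, without agar replicate 2). Glucose calls depended on single libraries: of the 50 made among listed genes that were no members, 48 were lost without glucose replicate 2, 47 without glucose replicate 1 and 44 without glucose replicate 3, and 24, 36 and 44 without standard replicates 1, 2 and 3. The glucose calls named in the text for genes that are no members were all among those lost without glucose replicate 2. The medians of the 7 were 0.20 on glucose and 0.32 on agar, against 0.25 and 0.28 over all genes tested on that scale.

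Immune peptides and immune-induced secreted proteins made up 9 of the 52 members, a grouping drawn up after the members' values were seen. Their differences ran from 1.03 to 2.21 log2 units on glucose and from 1.15 to 2.27 on agar. They include the Bomanins IM2 (BomS2), IM3 (BomS3), CG15068 (BomS6) and CG16836 (BomT2), short secreted peptides needed for Toll-mediated resistance to fungi and some bacteria, and the Daisho peptide IM4 (Dso1). The others were IM10 and CG33470 (BaraA1), which encode Baramicin precursors that are split into several peptides, CG18067 (Bbd, bombardier), on which Bomanin peptides in the haemolymph depend, and CG13422 (GNBP-like3), a small relative of the microbe-binding GNBP proteins.

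IM4 was at 0.272, 0.955 and 0.675 RPKM in standard replicates 1 to 3, at 2.43, 4.14 and 1.71 on glucose, and at 3.63, 2.64 and 2.06 on agar. The rule requires that the groups do not overlap, and the standard values stand for only 5 to 17 reads and the other values for 26 to 68. IM3 was at 1.41, 2.39 and 2.07 RPKM on standard medium, at 6.29, 11.7 and 6.35 on glucose, and at 11.8, 4.44 and 7.63 on agar. Its neighbour IM2 was at 1.58, 2.05 and 1.00, at 3.87, 8.65 and 4.54, and at 8.68, 2.89 and 6.89. In IM2 and IM3 alike, glucose replicate 2 and agar replicate 1 were the highest libraries and agar replicate 2 was the lowest agar library. CG16836, which lies next to IM3 on the other side, was at 1.42, 1.34 and 0.947 RPKM on standard medium, at 1.99, 2.75 and 2.85 on glucose, and at 3.67, 1.87 and 6.14 on agar. Its agar replicate 3 was its highest library, and its agar replicate 2 was lower than every glucose library.

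CG15068 was at 1.48, 0.905 and 0.538 RPKM in the standard libraries, at 2.30, 3.41 and 2.64 on glucose, and at 3.83, 2.35 and 5.54 on agar, from as few as 4 reads in standard replicate 3. The highest level of the group was that of CG18067, at 17.5, 23.9 and 13.9 RPKM on standard medium, 50.02, 53.8 and 34.2 on glucose, and 54.8, 52.9 and 46.4 on agar. With at least 495 reads in every library it is also the member of the group least limited by counting. IM10 and CG33470 had nearly the same values, within 0.10 log2 units in every library, and the sources used here do not say how reads were split between such near-identical genes. IM10 is also an older name that 2 current genes share, so both are uncertain as separate members.

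The highest library of a diet was the same in most of this group. Glucose replicate 2 was the highest glucose library in 8 of the 9 genes, against 38.5% of all members and 28.4% of genes tested. Agar replicate 1 was the highest agar library in 7 of the 9, against 19.2% of all members and 28.3% of genes tested. The lowest library was split, on glucose between replicate 1 (4 genes) and replicate 3 (5), and on agar between replicate 2 (5) and replicate 3 (4). The plot of the immune peptide members shows these libraries. Several of these genes are neighbours or near copies, so they are not independent.

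**Figure D3:**
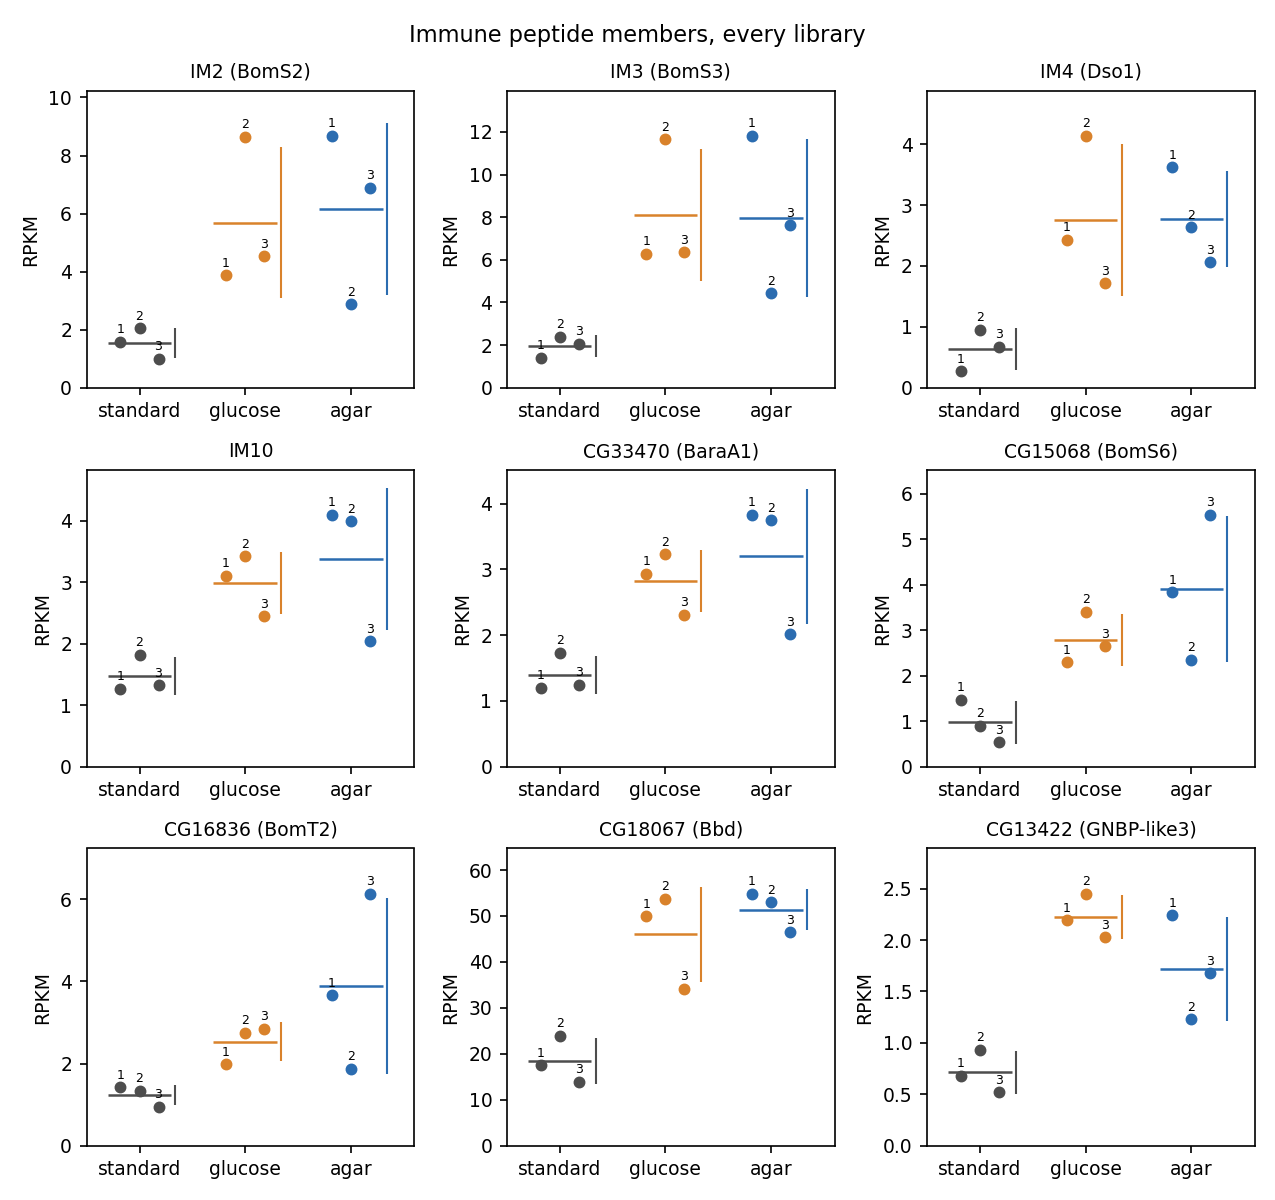
Each panel is 1 member and each point 1 library, numbered by repeat; the vertical axis is RPKM from 0, horizontal bars are diet means and vertical bars are 1 SD on either side of the mean (n = 3). Standard libraries lie below all others in every panel, as the rule requires. Glucose 2 and agar 1 are often the highest of their diets, for example 11.7 and 11.8 RPKM for IM3.

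From a list of immune-induced peptides, 18 were in the files and 17 of them had a mean log2 RPKM above that on standard medium on both diets, although CG16712 was so by 0.00 on glucose. The 9 members among them are there by the rule; of the 9 other peptides 8 lay above on both diets, as did 80.4% of all genes tested. The list was drawn up after the members had been seen, so this count is a description. The Bomanin IM1 (BomS1) missed the limits. It was at 0.317, 0.287 and 0.0946 RPKM on standard medium, at 2.69, 1.09 and 0.415 on glucose, and at 2.91, 0.840 and 1.06 on agar. Its libraries did not overlap, and its spread within a diet was wide, with replicate 1 the highest on every diet. CG5778 (BomT3) was called higher on both diets (limma, 0.61, adjusted p = 0.0486, and 0.54, adjusted p = 0.0497), at 0.304 ± 0.152, 1.00 ± 0.298 and 0.924 ± 0.458 RPKM, and its agar call was lost without any of 8 libraries (adjusted p of up to 0.137 without standard replicate 3) and with the repeat number as a block (adjusted p = 0.0501). As deposited, 1 of the 6 tested peptides that were no members was called higher on glucose (16.7%, against 21.3% of all genes tested). On agar 2 of them were called higher (33.3%, against 37.7%). None was called on either diet after median-ratio scaling, which called 77 and 374 of 8000 genes and left CG5778 under the detection filter. CG16712 (IM33), the most abundant of the list, was at 249 ± 36.5 RPKM on standard medium, 248 ± 24.8 on glucose and 418 ± 83.3 on agar, and was called on agar (limma, 0.74, SE 0.18, adjusted p = 0.0163, but 0.247 after median-ratio scaling and 0.0589 without agar replicate 2). CG15067 (BomBc2), at 2.84 ± 1.185, 5.93 ± 1.95 and 5.08 ± 1.79 RPKM, was not called (limma adjusted p = 0.0622 on glucose, and 0.0285 with the block).

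Of the other antimicrobial peptides listed, Drsl3 met the limits and was dropped by name, at 0.851 ± 0.169 RPKM on standard medium, 2.72 ± 1.06 on glucose and 2.22 ± 1.22 on agar. Def, which encodes a defensin, was at 4.84, 4.66 and 4.50 RPKM on standard medium, at 1.09, 2.75 and 3.01 on glucose, and at 1.16, 1.04 and 0.951 on agar, so its levels lay the other way. AttD was at 0.228 to 0.845 RPKM on standard medium and at most 0.0546 on either other diet. Dpt (diptericin) was at 5.22 RPKM in glucose replicate 2, the highest glucose library in most of the immune members, and at most 0.729 in any other library.

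None of the 17 listed Toll pathway genes was a member, and 13 were tested. On glucose 5 were called higher and none lower (38.5%, against 21.3% of all genes tested), and on agar 7 and none (53.8%, against 37.7%). With the repeat number as a block 10 and 9 were called (76.9% and 69.2%, against 45.7% and 55.7% of all genes tested). The medians were 0.40 and 0.36 on the log2(RPKM + 1) scale, against 0.25 and 0.28 over all genes tested. After median-ratio scaling they were 0.15 and 0.11 with 0 and 1 genes called, against 77 and 374 of 8000 genes. GNBP1, a recognition protein upstream of Toll, was at 3.11 ± 0.211 RPKM on standard medium, 4.91 ± 0.392 on glucose and 5.48 ± 0.233 on agar (limma, 0.52, SE 0.08, adjusted p = 0.0171, and 0.66, SE 0.08, adjusted p = 0.00324). Only its difference on agar was called after scaling (adjusted p = 0.0271, against 0.129 on glucose). The adaptor gene Myd88 was at 10.1 ± 0.783, 14.1 ± 0.699 and 12.8 ± 0.716 RPKM and was called on glucose (limma, 0.45, SE 0.09, adjusted p = 0.0198). Myd88 was also called on agar (limma adjusted p = 0.0250), a call lost without any 1 of 4 libraries. The gene tub, for the adaptor Tube, was called on agar (limma, 0.54, SE 0.10, adjusted p = 0.00728), at 6.23 ± 0.504 RPKM on standard medium and 9.54 ± 1.07 on agar. Neither the glucose call of Myd88 nor the agar call of tub held after scaling (adjusted p = 0.445 and 0.204).

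Markers of tissues that could accompany the gut are given beside these genes, since the peptides are known from the fat body. The summed level of 4 fat body markers overlapped between diets, at 283 to 398 RPKM on standard medium, 332 to 385 on glucose and 259 to 371 on agar. Of these, the yolk protein gene Yp2 was called lower on agar (limma, -1.24, SE 0.33, adjusted p = 0.0196, 0.0777 with quantile normalization and 0.0512 without standard replicate 1), and none was called higher on either diet. The 3 haemocyte markers summed to at most 0.346 RPKM in any library, and each was under 1 RPKM throughout. The sum of 3 Malpighian tubule markers was higher on both diets, at 39.5 to 42.7, 60.5 to 65.7 and 59.7 to 76.0 RPKM, nearly all of it from the potassium channel gene Irk2 (limma, 0.66, SE 0.12, adjusted p = 0.0182, and 0.79, SE 0.12, adjusted p = 0.00501, neither called after median-ratio scaling). The tubule markers Uro and TyrR were not called. The part of these tissues in the members' levels was not tested. The 4 enterocyte markers summed to 15431 to 22756 RPKM on standard medium, 12592 to 15229 on glucose and 6870 to 15634 on agar. Most of this came from the digestive proteases alphaTry and Jon65Aiv, of which Jon65Aiv was called lower on agar (limma, -1.65, adjusted p = 0.0143). Some single markers were called higher on both diets as deposited, with limma adjusted p of 0.00644 to 0.0460. These were nub of enterocytes (0.44 and 0.47), esg of progenitors (0.54 and 0.52) and Tk of enteroendocrine cells (0.52 and 0.43). Each was the only 1 called higher of the 4 enterocyte, 1 progenitor and 3 enteroendocrine markers tested. The 2 other progenitor markers were under 1 RPKM throughout. Of all genes tested, 21.3% and 37.7% were called higher, with medians of 0.25 and 0.28. Of 6 muscle markers, Tm1 and Mf were called higher on agar (limma, adjusted p = 0.0259 and 0.0457) and none lower. The median of the 6 on agar was 0.02 on the log2(RPKM + 1) scale, against 0.28 over all genes tested. Their sum overlapped between diets, at 322 to 431 RPKM on standard medium, 332 to 470 on glucose and 370 to 453 on agar. None of the 5 higher markers nub, esg, Tk, Tm1 and Mf was called after median-ratio scaling. Their part in the members' levels was not tested either.

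Melanization and secreted signalling proteins supplied 4 members. The gene yellow-f2, for an enzyme that converts dopachrome on the way to melanin, was at 0.968, 0.741 and 0.765 RPKM on standard medium, at 2.59, 2.29 and 2.30 on glucose, and at 2.75, 1.87 and 2.37 on agar. Sp7, for a serine protease that activates the melanization cascade, had standard libraries between 1.06 and 1.08 RPKM and others between 1.92 and 3.20. CG8317 (Lst) encodes limostatin, a hormone known to suppress insulin secretion when nutrients are scarce, and was 2.59-fold higher on glucose and 3.01-fold higher on agar, from 2.00 ± 0.488 RPKM on standard medium. CG11395 (Gbp2), for a growth-blocking peptide, was 2.35-fold and 2.59-fold higher. Limostatin is made in endocrine cells of the corpora cardiaca, and the level seen here is a few RPKM in whole guts.

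Detoxification and small-molecule metabolism supplied 6 members. Cyp6a2, a cytochrome P450 known for insecticide metabolism, was at 68.7, 41.7 and 42.4 RPKM on standard medium, at 113, 118 and 127 on glucose, and at 126, 131 and 125 on agar. The agar libraries were closest together, and standard replicate 1 was above the others of its diet. Cyp4p1, also a cytochrome P450, was at 3.30, 4.02 and 3.09 RPKM, then 6.89, 8.29 and 13.1 on glucose and 7.02, 9.58 and 9.95 on agar. CG6084 (Akr1B), an aldo-keto reductase of the class that reduces aldehydes and sugars, was at 52.3, 53.9 and 45.0 on standard medium, at 117, 121 and 137 on glucose, and at 99.1, 108 and 157 on agar.

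In all 6 of these genes glucose replicate 3 was the highest glucose library, as it was in 55.8% of all members and 39.8% of genes tested. Sodh-1, a sorbitol dehydrogenase of the polyol pathway, was at 4.43 ± 1.16 RPKM on standard medium and 2.47-fold and 2.93-fold higher on glucose and agar. Hn, for the phenylalanine hydroxylase that makes tyrosine, was at 1.05 ± 0.154 RPKM and 2.32-fold and 3.04-fold higher, with agar replicate 3 at 5.05 RPKM against 2.17 and 2.94 in the other agar libraries. The gene agt, for a protein that repairs alkylated guanine in DNA, was 2.07-fold and 2.20-fold higher.

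Cytochrome P450 enzymes oxidize foreign compounds, steroids and fatty acids. Of 74 family genes measured and 57 tested, 55 were no members. Of these 55, 12 were called higher on glucose (21.8%, against 21.3% of all genes tested) and 34 on agar (61.8%, against 37.7%), and none was called lower. Their medians were 0.32 and 0.77 on the log2(RPKM + 1) scale, against 0.25 and 0.28 over all genes tested. With the repeat number as a block 26 and 42 were called (47.3% and 76.4%, against 45.7% and 55.7% of all genes tested). After median-ratio scaling 0 and 12 were called higher and none lower, with medians of 0.04 and 0.43. Of all 8000 genes tested after that scaling, 26 and 146 were called higher. Cyp4aa1 was at 4.23 ± 0.463 RPKM on standard medium, 7.92 ± 0.864 on glucose and 10.0 ± 1.07 on agar (limma, 0.77, SE 0.11, adjusted p = 0.0154, and 1.08, SE 0.11, adjusted p = 0.00229). Cyp9h1 was at 4.001 ± 0.608, 6.24 ± 0.285 and 8.33 ± 0.594 RPKM (limma, 0.54, SE 0.10, adjusted p = 0.0182 on glucose, and adjusted p = 0.00266 on agar). Both glucose calls were lost after scaling (adjusted p = 0.0686 and 0.237). Cyp4s3 was called on agar (limma, 1.53, SE 0.15, adjusted p = 0.00196), at 6.49 ± 1.23 RPKM against 1.59 ± 0.305.

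The most abundant member was CG6770, a relative of the small stress-responsive nuclear protein NUPR1 of mammals. It was at 482, 426 and 488 RPKM on standard medium, at 966, 911 and 969 on glucose, and at 1143, 1241 and 1157 on agar. These values rest on at least 14050 reads in each library, and the agar libraries all lay above the glucose libraries, 2.54-fold above standard medium against 2.04-fold. Plzf, the next gene to CG6770 on chromosome arm 2L, encodes a zinc finger protein and was far less abundant. It was at 0.705, 0.710 and 0.759 RPKM on standard medium, at 1.60, 1.69 and 2.52 on glucose, and at 1.73, 2.604 and 2.20 on agar.

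CG14120, which encodes a nuclease-like protein, was at 67.6, 87.7 and 79.8 RPKM on standard medium, at 149.6, 187 and 224 on glucose, and at 131, 188 and 385 on agar. CG3739, annotated as a serine-type peptidase, was at 61.6, 37.1 and 102 on standard medium, at 114, 113 and 224 on glucose, and at 113, 158 and 306 on agar. In both genes agar replicate 3 was the highest library; the SDs on agar were 133 and 101 RPKM. The gap between CG3739 in standard replicate 3 and its lowest other library was 1.10-fold.

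CG34203 was at 44.7, 53.3 and 36.1 RPKM on standard medium, at 168, 156 and 179 on glucose, and at 118, 136 and 202 on agar. CG42656 was at 40.3, 47.9 and 37.9 on standard medium, at 91.3, 145 and 149 on glucose, and at 81.2, 101 and 145 on agar. The standard libraries were well below the others in both, and agar replicate 1 was the lowest of the 6 glucose and agar libraries. The gene fok was at 26.6, 29.0 and 25.2 RPKM on standard medium, at 61.9, 68.2 and 55.6 on glucose, and at 71.3, 83.9 and 102 on agar, so each agar library was above each glucose library.

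**Figure D4:**
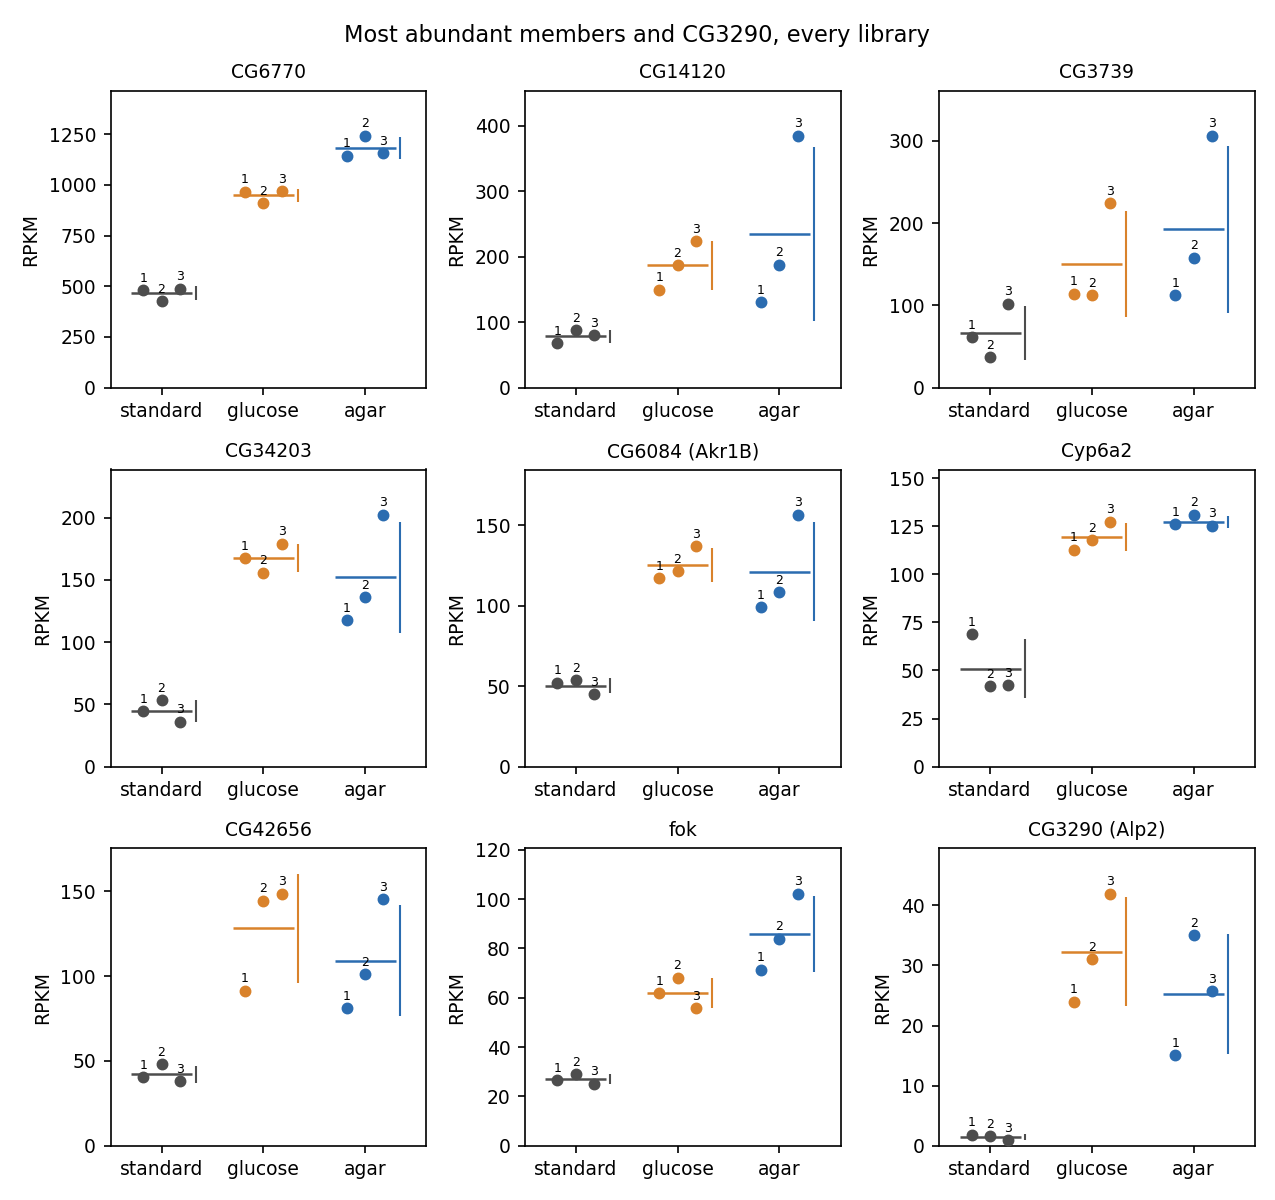
Panels show the 8 members with the highest mean over the glucose and agar libraries, and CG3290; each point is 1 library, numbered by repeat, on an RPKM axis from 0, with diet means as horizontal bars and 1 SD on either side as vertical bars (n = 3). CG6770 and Cyp6a2 are tight on both diets, whereas agar 3 stands above agar 1 and 2 in CG14120 (385 RPKM against 131 and 188) and CG3739.

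Among members with large differences but low levels, CG31272 was at 0.900, 0.613 and 0.521 RPKM on standard medium, at 1.56, 2.55 and 4.82 on glucose, and at 1.30, 3.80 and 2.76 on agar. CG10680 was at 2.14, 1.93 and 1.42, then 3.68, 7.27 and 8.93 on glucose and 4.47, 3.51 and 11.4 on agar. The spread within glucose and agar was wide in both genes, with replicate 1 the lowest glucose library. CG13116 was at 1.202, 1.12 and 1.36 on standard medium, at 4.98, 4.28 and 3.05 on glucose, and at 3.88, 3.96 and 3.06 on agar. CG15210 was at 5.82, 7.36 and 4.91, at 16.3, 18.8 and 13.9, and at 14.6, 26.9 and 12.4. Replicate 3 was the lowest library of both diets in CG13116 and CG15210, whereas in CG10680 it was the highest.

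Membrane proteins supplied 4 members, all lowest among agar libraries in agar replicate 1, as were 50% of all members and 43.6% of genes tested. Esyt2, for a tether between the endoplasmic reticulum and the plasma membrane, and Mctp, for a multiple C2 domain membrane protein, were 2.23-fold and 2.14-fold higher on glucose and 2.08-fold and 2.07-fold on agar. CG16718 (subdued), of the anoctamin channel family, and Rh50, of the ammonium transporter family, were 2.76-fold and 2.77-fold higher on glucose and 2.42-fold and 2.28-fold on agar. Of the remaining members, CG9989 (Sid), a stress-induced DNase, was 2.62-fold and 3.64-fold higher, and Phk-3, a pherokine, of a family of small secreted proteins, was 2.45-fold and 2.47-fold higher. A pair of small nucleolar RNAs was also taken, although the libraries were made with an mRNA kit. These were snoRNA:Me28S-U1848, with 2 to 6 reads per standard library and 8 to 11 in the others, and snoRNA:Psi28S-3385b, with 9 to 12 and 15 to 36.

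Of the 52 members 49 were protein coding and 21 had only a CG number as their current symbol. Chromosome arm 2R held 21 of the 51 that could be placed (41.2%, against 20.4% of all genes placed), among them the Bomanin neighbours IM2, IM3 and CG16836. Arm 3R held 13 (25.5%, against 24.7%), 2L held 8, 3L held 6 and the X chromosome held 3 (5.88%, against 15.98%). Reads could be recovered as whole numbers for 35 of the 52. The transcript length was itself solved, as the shortest up to 6000 bases that gave whole reads in all 9 libraries. This equalled the annotated length in each of the 14 members whose single annotated transcript gave whole reads. For the others the read numbers rest on the solved length.

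An amino acid shortage response, in which the kinase GCN2 and the transcription factor ATF4 (crc in flies) act, is known to follow loss of dietary protein, and its genes were compared because neither diet supplies protein. None of the 17 tested genes of that list was a member. On glucose 3 were called higher (17.6%, against 21.3% of all genes tested) and 1 lower, with a median of 0.21. On agar 5 were called higher (29.4%, against 37.7%) and 1 lower, with a median of 0.30, and the medians of all genes tested were 0.25 and 0.28. With the repeat number as a block 8 and 10 were called (47.1% and 58.8%, against 45.7% and 55.7%). After median-ratio scaling 0 and 2 were called, both lower, against 77 and 374 of 8000 genes. Gadd34 (PPP1R15), which restores translation, was at 14.0 ± 0.497 RPKM on standard medium, 19.0 ± 0.774 on glucose and 20.0 ± 1.42 on agar (limma, 0.42, SE 0.09, adjusted p = 0.0219, and 0.49, SE 0.09, adjusted p = 0.00735). Gcn2 was at 1.55 ± 0.131, 2.54 ± 0.268 and 2.45 ± 0.412 RPKM (limma, 0.47, SE 0.11, adjusted p = 0.0235 on glucose, and adjusted p = 0.0153 on agar). CG11899, a phosphoserine aminotransferase of serine synthesis, was called on agar alone (limma, 0.80, SE 0.16, adjusted p = 0.00843), at 12.8 ± 2.78 RPKM against 6.87 ± 0.803. After scaling none of these calls held (adjusted p = 0.124 to 0.554, not counting Gcn2 on agar).

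How many genes the rule took depended on the scaling of the libraries. After median-ratio scaling 14 genes met it, all of them members, and after quantile normalization 21 did, of which 20 were members. The members' medians were then 0.99 on glucose and 1.04 on agar, and 1.04 and 1.11. The smaller of a member's differences still reached the limit of 1 in 16 members under the first scaling and 22 under the second. In 47 members under the first scaling and 45 under the second, every glucose and agar library lay above every standard library. The rule chose the members by such a gap in the deposited values, so nothing is read from these counts. The share of all genes with such a gap after scaling is not given here. The smaller difference was at least 0.66 and 0.62 over the members. The 12 members that met the rule under both scalings were CG10680, CG13116, CG15068, CG15210, CG18067, CG31272, CG34203, CG8317, IM2, IM3, IM4 and yellow-f2. The differences of CG13215 were large under every scaling (at least 2.95), and it left the rule because its glucose and agar means then differed by more than 0.5. Of the 9 immune members 5 met the rule under each scaling, and of the 6 detoxification members 0 did under the first and 3 under the second.

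**Figure D5:**
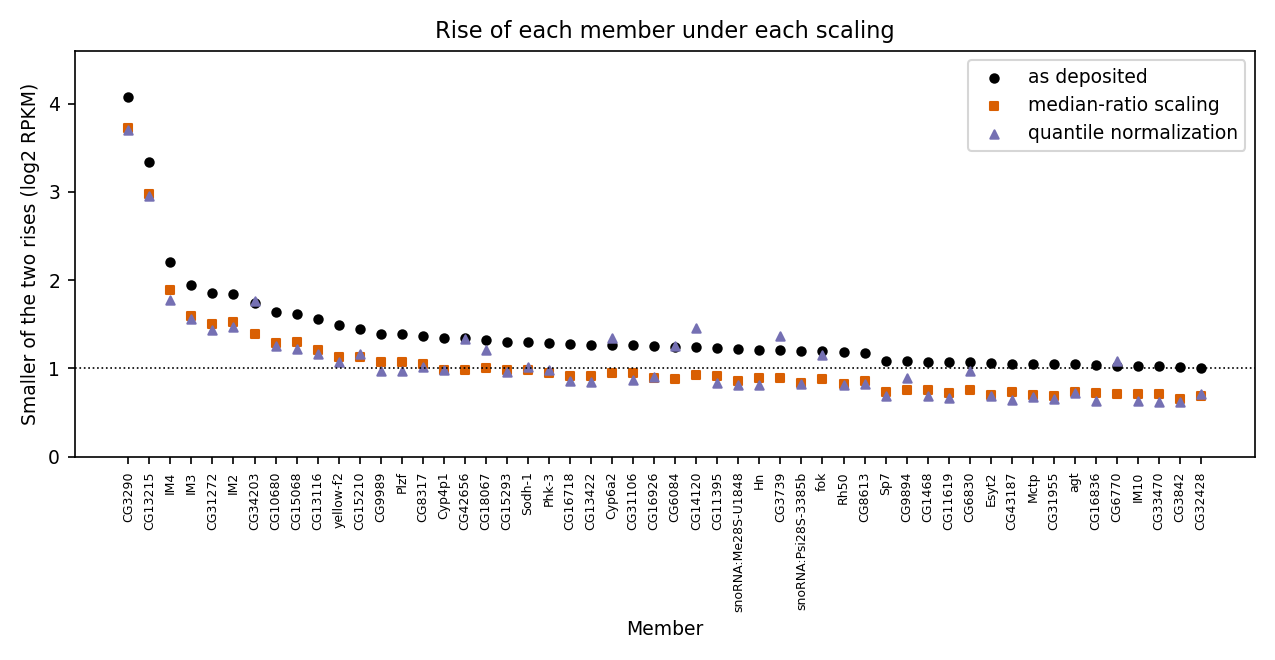
Members are ordered along the horizontal axis by the smaller of their differences from standard medium, and the vertical axis gives that difference in log2 RPKM as deposited (black circles), after median-ratio scaling (orange squares) and with quantile normalization (purple triangles). The dotted line is the limit of 1, and the values after scaling stay at or above 0.62 while most of them lie under that line.

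The members were also set against single standard libraries, since standard replicates 2 and 3 were high in histone transcripts. Against standard replicate 1 alone, the members' median difference was 1.26 on glucose and 1.34 on agar, and the lowest were 0.69 and 0.73. The medians of all genes over the detection filter against that library were 0.28 and 0.32. The rule had already placed every glucose and agar library of a member above it, so positive differences were fixed by the rule. The rule with that library as the only standard took 81 genes, 40 of them members, and with standard replicates 2 and 3 alone it took 71, 48 of them members. Leaving out each library in turn gave 40 to 71 genes, and 18 of the 52 members met the rule in every such case.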

How the data were processed

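Total RNA from whole guts was made into stranded mRNA libraries, per the labels' protocols. The submitters' processing notes name CASAVA 1.82, Bowtie2 2.1 and limma. The sources used here do not give the genome build, the annotation or the use of strand in counting. The authors deposited 1 log2 RPKM value per gene and library, where the design had assumed RPKM, so RPKM was taken as 2 to the power of the value. The deposited log2 values had the form of reads + 0.5 over library total + 1 and transcript length, and library totals and members' reads were recovered from whole-number steps. At annotated lengths, 2622 of 4240 genes with 1 transcript (61.8%) were whole within 1e-06. Members' lengths were solved from such steps. No reads were counted anew.

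The rule was applied to the deposited values. All 8036 genes that reached 1 RPKM in 3 or more libraries were fitted on log2(RPKM + 1) by limma, with 1 mean per diet, a variance trend and Benjamini-Hochberg adjustment, called under 0.05. Differences of list genes are on this scale, where those of low genes are understated. Alternatives were other pseudocounts, filters, scalings and limits, the repeat number as a block and each library left out. Standard replicates 2 and 3 as the only standards, the fit without them, median-ratio scaling with the block, and the level limit on mean log2 RPKM were chosen after seeing the data. Residual correlations were 0.172 to 0.590 between libraries of the same repeat number and -0.529 to 0.287 between others. The repeat numbers of the labels were therefore taken to pair the libraries, but only in the fits with the block. All other SEs and p-values come from fits that ignore this pairing. Members and lists were chosen with earlier results of these data known.

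Members named with every library are the 12 with the largest smaller difference, the 8 most abundant on glucose and agar, neighbours, and up to 2 of each listed family, and list genes named are the 2 with the smallest p in each comparison. Immune members, Toll genes, other antimicrobial peptides, marker genes and further members of a role group were named after their values were seen. Gene names were matched to BDGP6.54 and RefSeq tables (7878 current, 2198 older, 116 matching several genes and 53 none). Those tables served for names, neighbours and chromosome arms, and no sequence was used here. The fit was tested on simulated data. The tools were limma 3.58.1 under R 4.3.3, and pandas 2.3.3, Matplotlib 3.10.9 and NumPy 2.4.6 under Python 3.11.15.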

Additional observations from a re-analysis of the deposited data

How the results depend on the processing

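The rule took 52 genes as applied. It took 14 after median-ratio scaling, 21 with quantile normalization, 26 on log2(RPKM + 1), 10 with a limit of 1.5 log2 units, 28 with a level of 5 RPKM, 81 with standard replicate 1 as the only standard, and 40 to 71 with each library left out in turn. Of 528 recomputed differences of the 22 members given in every library, 490 moved by less than the replicate SD and 38 moved more. None changed sign, with a range of 0.63 to 4.68. Of 44 differences per setting, 15 moved more after median-ratio scaling, 14 on log2(RPKM + 1) and 9 with quantile normalization. With any 1 library left out 0 of 44 did. A left-out library can move a mean only a little and the rule had fixed the sign, so nothing is read from those values. For glucose and agar in turn, genes called numbered 1787 and 3210. They were 1113 and 2063 with a 5 RPKM filter, 77 and 374 after median-ratio scaling, 57 and 348 with quantile normalization, 441 and 1165 with that median-ratio scaling and the block together, and 0 and 0 without standard replicates 2 and 3 (limma, 1483 and 2365 at an unadjusted p under 0.05). In that last fit the lone standard library is assumed to vary like the other groups. Leaving out 1 library gave 9 to 2729 genes on glucose, fewest without glucose replicate 2 and more than 1.5 times off without any of the standard or glucose libraries or agar replicate 3, and 1667 to 3243 on agar, with such a shift without agar replicate 2 (1667) or standard replicate 3 (1788). In the pairing fit, with the repeat number as a replicate block, 3676 genes were called on glucose and 4480 on agar, 8 and 10 of the amino acid list (4 and 6 without it), and 49 of the 5 listed families on glucose (25 without it). The amino acid list had 0 and 2 called after median-ratio scaling, 0 and 1 with quantile normalization, 0 and 0 without standard replicates 2 and 3, 2 on glucose with median-ratio scaling and the block, and 0 to 5 and 4 to 7 with 1 library left out. The families (25 and 64 called of 122 genes that were no members) had 3 and 25, 1 and 34, and 0 and 0 in the same order, 13 on glucose with scaling and the block, and 0 to 40 and 51 to 72 with 1 library left out. The causes of these shifts were not tested. Depth limits members of few reads, such as IM4, CG15068 and the small nucleolar RNAs, and the fitted calls depend on 3 libraries a diet.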

Other observations

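The UDP-glycosyltransferases, which attach sugars to small molecules, had 24 genes tested and no member. On glucose 5 were called higher (20.8%, against 21.3% of all genes tested) and on agar 9 (37.5%, against 37.7%), none lower. Medians were 0.24 and 0.51 on the log2(RPKM + 1) scale, against 0.25 and 0.28 over all genes tested. With the repeat number as a block 9 and 15 were called (37.5% and 62.5%, against 45.7% and 55.7% of all genes tested). After median-ratio scaling 0 and 1 were called, against 77 and 374 of 8000 genes, with medians of 0.01 and 0.16. Ugt86Dc, which missed the limit on size, was at 7.41 ± 0.657 RPKM (SD, n = 3) on standard medium, 16.7 ± 4.56 on glucose and 15.5 ± 6.15 on agar (limma, 1.05, SE 0.26, adjusted p = 0.0294 on glucose, and 0.181 after median-ratio scaling). As deposited Ugt86Dc was also called on agar (limma adjusted p = 0.0260), a call lost without any 1 of 3 libraries. Ugt37a1 was under 1.76 RPKM throughout (limma, 0.66, adjusted p = 0.0242 on glucose, and 0.95, adjusted p = 0.00532 on agar). Ugt86Da was called on agar (limma, 1.11, SE 0.17, adjusted p = 0.00486), at 36.9 ± 7.32 RPKM against 16.4 ± 0.956. Ugt86Da was also called higher on glucose (limma adjusted p = 0.0414), a call lost without any 1 of 7 libraries.

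Lipases, 19 of them tested, had 1 higher (5.26%, against 21.3% of all genes tested) and 1 lower on glucose. On agar 9 were higher (47.4%, against 37.7%) and 3 lower. Over all 8036 genes tested, 72 were called lower on glucose and 179 on agar. In the block fit 5 and 13 lipases were called (26.3% and 68.4%, against 45.7% and 55.7% of all genes tested). After median-ratio scaling 1 and 6 were called, against 77 and 374 of 8000 genes. CG8093 was at 19.0 ± 5.22 RPKM on standard medium, 44.9 ± 15.2 on glucose and 303 ± 137 on agar, and was called on agar (limma, 3.85, SE 0.38, adjusted p = 0.00196). Lip3 was called on agar as well (limma, 1.72, SE 0.25, adjusted p = 0.00471), at 2.75 ± 1.39 RPKM against 0.0773 ± 0.0522. The triglyceride lipase gene bmm was lower on glucose (limma, -0.73, SE 0.15, adjusted p = 0.0195), at 30.2 ± 2.45 RPKM against 50.9 ± 7.11, and CG5162 was higher there (limma, 0.40, SE 0.10, adjusted p = 0.0274, and 0.634 after median-ratio scaling). Both genes were also called on agar (limma adjusted p = 0.00486 and 0.0102), in directions not given here.

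Amino acid transporters, 17 tested, had 3 higher (17.6%, against 21.3% of all genes tested) and 1 lower on glucose. On agar 3 were higher (17.6%, against 37.7%) and 5 lower. Of the 8036 genes tested, 72 and 179 were called lower on glucose and agar. After median-ratio scaling 2 and 6 transporters were called, against 77 and 374 of 8000 genes. The gene slif, for a cationic amino acid transporter, was lower on both diets, at 68.3 ± 8.26 RPKM on standard medium, 46.1 ± 3.44 on glucose and 32.5 ± 4.16 on agar (limma, -0.55, SE 0.14, adjusted p = 0.0288, and -1.05, SE 0.14, adjusted p = 0.00381). CG5535, a gene that the rule leaves out by name, was called higher on glucose (limma, 1.46, SE 0.21, adjusted p = 0.0154), and CG8785 was called lower on agar (limma, -1.30, SE 0.21, adjusted p = 0.00532). CG5535 was also called on agar (limma adjusted p = 0.0132), in a direction not given here.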
